A study of Mus musculus with 12 samples.

Results

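Lipid-laden macrophages of scarred tissue are recognised by a short list of genes, and 8 of them are described here: Spp1, Gpnmb, Trem2, Tyrobp, Cd9, Arg1, Lgals3 and Chil1. They were taken by name from a table of 26855 mouse genes, and all 8 were among the 12625 genes with enough counts to test. The libraries came from alveolar macrophages, the resident phagocytes of the air spaces, recovered by lung lavage on day 14 after bleomycin, a drug whose lung injury is a common model of fibrosis. All groups had received bleomycin, so an uninjured level was not analysed here. Filtration by size gave one fraction enriched in border-associated alveolar macrophages and one with few of them, and flow sorting then used side scatter and the signal of BODIPY, which stains neutral lipid.

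There were 12 libraries, 4 for each of the titles UPBIG, UPSMALL and DOWN. Which fraction or gate a title denotes is not given in the labels, so titles are used as group names. Separate mice for the replicates are not stated either, so a p-value here reflects the spread between libraries, which may be technical. Levels are given in CPM, counts of a gene relative to the library total after TMM scaling, a factor that aligns the bulk of genes between libraries. Changes are log2 differences with their standard error (SE) from edgeR's quasi-likelihood test, with p-values adjusted over all tested genes by Benjamini-Hochberg and called under 0.05. In such bulk samples fewer cells of a type and less RNA per cell cannot be told apart.

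As background, Trem2 is a surface receptor for lipids and lipoproteins that signals through Tyrobp (DAP12), an adaptor that several other myeloid receptors share. Spp1 (osteopontin) is a secreted matrix protein bound by integrins and CD44, Gpnmb a transmembrane glycoprotein of lysosomes and the cell surface, Cd9 a tetraspanin, and Lgals3 (galectin-3) a glycan-binding lectin. Arg1 turns arginine into ornithine and urea and marks alternatively activated mouse macrophages, and Chil1 is a secreted chitinase-like protein. Macrophages with high Spp1, Gpnmb, Trem2 and Cd9 are known from fibrotic lung and liver, while Arg1 in the mouse lung is often linked to macrophages recruited after injury.

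The labelled cell type was checked against marker genes. All 14 alveolar macrophage markers on a list that includes Siglecf, Pparg and Ear2 had counts, summing to 11469 to 14951 CPM in UPBIG, 11587 to 16132 in UPSMALL and 8909 to 13401 in DOWN. Markers of monocytes and recruited macrophages, all 13 with counts, summed to 1687 to 2239 CPM in UPBIG, 2498 to 3184 in UPSMALL and 3104 to 3545 in DOWN. The neutrophil list, 9 of its 11 genes with counts, summed to 389 to 433, 187 to 242 and 160 to 199 CPM, mostly through S100a8, while the neutrophil gene Camp was at 0 in every UPBIG and UPSMALL library. Dendritic cell markers summed to 7.7 to 13.7 CPM in UPBIG, 34.4 to 93.0 in UPSMALL and 74.3 to 181 in DOWN. T and NK cell markers summed to 4.17 to 24.3 CPM in UPBIG, 1.87 to 8.15 in UPSMALL and 28.5 to 101 in DOWN, and epithelial markers to 19.2 to 233, 18.9 to 64.0 and 13.7 to 28.0. B cell and platelet markers summed to at most 42.0 and 39.3 CPM in any library, and eosinophil markers to at most 2.13. Library totals ran from 17109669 to 23282621 expected counts. TMM factors were 0.858 to 0.896 in UPBIG, against 0.992 to 1.17 in UPSMALL and 1.03 to 1.16 in DOWN. Scaling by library totals alone therefore moved the median change of all genes between UPBIG and DOWN from -0.03 to -0.36, between UPBIG and UPSMALL from -0.03 to -0.31, and between UPSMALL and DOWN from 0.00 to -0.05.

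The 8 genes did not move as a block. Between UPBIG and DOWN, Gpnmb, Tyrobp and Cd9 rose and Arg1 fell, while Spp1, Trem2, Lgals3 and Chil1 did not pass. These 4 calls among 8 genes stand beside 17.5% of all tested genes called in that comparison, 9.03% higher and 8.48% lower. The median change of the 8 was 0.40 on the log2 scale, or 0.09 with library totals alone. Between UPBIG and UPSMALL, Tyrobp rose and Arg1 fell, beside 5.7% of all genes called (3.22% higher and 2.49% lower). Between UPSMALL and DOWN none of the 8 passed by edgeR, beside 1.14% of all genes, and the count was also 0 at an unadjusted p under 0.05 and by DESeq2. With the replicate number as a block, a pairing the labels do not state, edgeR passed Gpnmb there (adjusted p 0.00639). UPBIG and DOWN did not overlap in CPM for 4 of the 8, where 21.4% of all genes did not overlap, and UPBIG and UPSMALL did not overlap for the same 4, where the background was 11.8%. UPSMALL and DOWN overlapped for all 8, while 8.25% of all genes did not overlap. A joint test for any difference among the groups, which called 13.8% of all genes, called the same 4.

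Promoter sequences are shown for 3 of the genes because Gpnmb gave the largest rise of the list between UPBIG and DOWN while Spp1 and Trem2 did not pass in any comparison. RefSeq promoter windows of 300 bases on GRCm38.p6 were matched for 6 of the 8 genes, with a pair of windows for Spp1. Each was searched on both strands for the AP-1 motif TGANTCA, the E-boxes CACGTG and CATGTG, and the PU.1 motif GAGGAAG. Printed are the 150 bases before and the first 18 from the start site, 5′ to 3′ on the plus strand, with motif matches in capitals. The Spp1 stretch lies at chr5:104434961-104435128, the Gpnmb stretch at chr6:49036368-49036535 and the Trem2 stretch at chr17:48346251-48346418. Start sites here are those of RefSeq. The Gpnmb stretch ends before 49036546, where the gene annotation used for the gene positions below starts Gpnmb.
Spp1: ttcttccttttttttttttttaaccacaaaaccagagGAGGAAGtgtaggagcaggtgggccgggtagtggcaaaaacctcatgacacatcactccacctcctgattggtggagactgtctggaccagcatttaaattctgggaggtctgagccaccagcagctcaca
Gpnmb: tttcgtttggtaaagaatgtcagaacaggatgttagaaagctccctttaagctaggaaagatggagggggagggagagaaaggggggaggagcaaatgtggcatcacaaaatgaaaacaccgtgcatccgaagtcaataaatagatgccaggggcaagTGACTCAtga
Trem2: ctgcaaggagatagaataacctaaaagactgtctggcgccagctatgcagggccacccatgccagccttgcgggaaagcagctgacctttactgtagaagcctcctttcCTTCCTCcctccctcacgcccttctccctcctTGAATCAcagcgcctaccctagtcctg
The capitals mark GAGGAAG at -113 to -107 in Spp1 and TGACTCA, an AP-1 match, at 9 to 15 in Gpnmb. In Trem2 they mark CTTCCTC, the PU.1 motif on the minus strand, at -41 to -35, and TGAATCA, again AP-1, at -9 to -3. An AP-1 match thus occurred both in the gene with the largest rise and in one that did not pass. TGANTCA was present in 7.81% of 32851 mouse promoter windows of this length, GAGGAAG in 13.6%, CATGTG in 14.2% and CACGTG in 7.15%. The Cd9 window held CATGTG on the strand opposite to the gene, reading CACATG along the gene, at -38 to -33. The windows of Lgals3 and Chil1 and the other Spp1 window held none of these motifs. No listed match overlapped another.

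Gpnmb lies at chr6:49036546-49070929 on the plus strand of mm10. It stood at 2872, 2649, 1929 and 1788 CPM in UPBIG replicates 1 to 4, at 1539, 1299, 657 and 656 in UPSMALL, and at 801, 803, 557 and 443 in DOWN. Every UPBIG library exceeded every library of the other groups, and UPSMALL overlapped with DOWN. Between UPBIG and DOWN it rose by 1.83 ± 0.32 (SE) on the log2 scale, 3.55-fold, with an adjusted p of 0.00225 by edgeR (n = 4 each), and by 1.51 with library totals alone. The difference of 1.15 ± 0.31 between UPBIG and UPSMALL gave an adjusted p of 0.0569 by edgeR and did not pass, whereas DESeq2 gave 0.00917. UPSMALL against DOWN gave 0.67 ± 0.31 (adjusted p = 0.395 by edgeR). That difference passed in edgeR when the replicate number was fitted as a block (adjusted p 0.00639), a pairing the labels do not state.

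**Figure D1:**
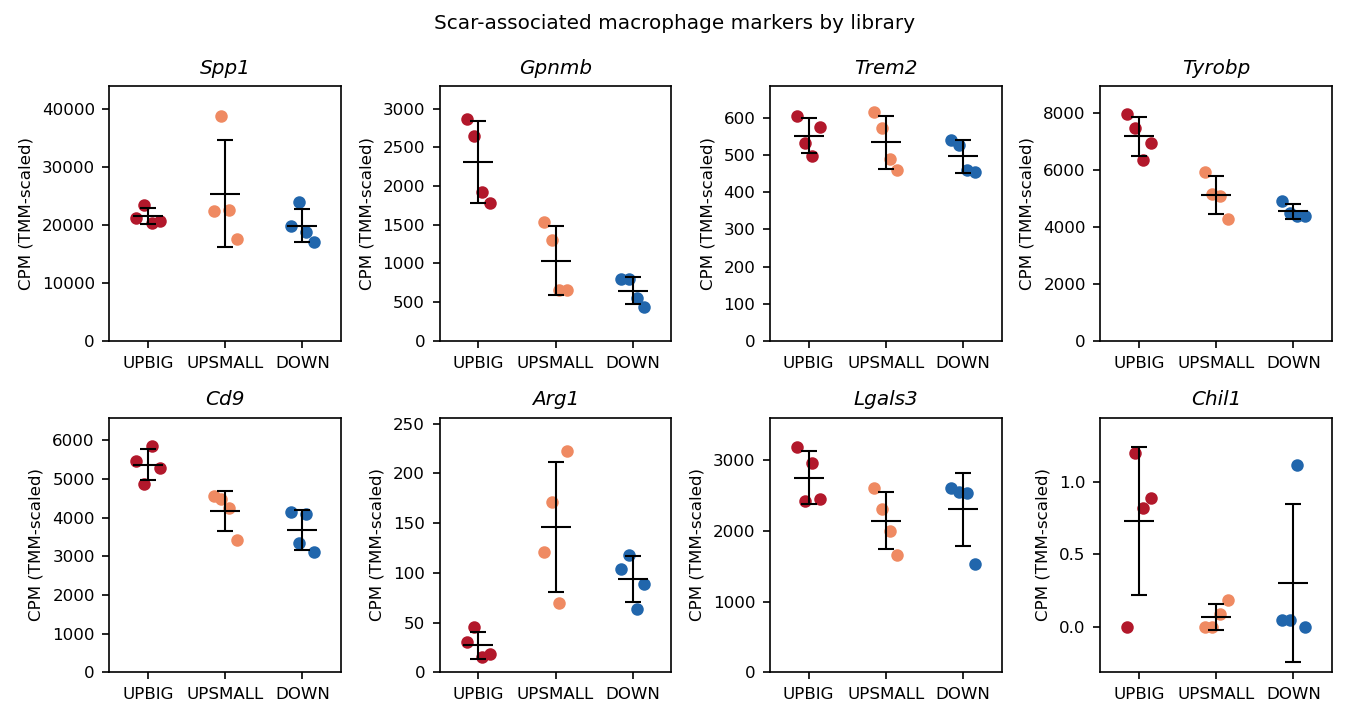
Level of each of the 8 genes in every library, in TMM-scaled CPM on linear axes with a separate scale per gene; points are libraries and black bars the mean ± SD of 4. Gpnmb, Tyrobp and Cd9 are higher and Arg1 lower in all 4 UPBIG libraries than in any DOWN library, while Spp1, Trem2 and Lgals3 overlap and Chil1 stays at or under 1.20 CPM.

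The receptor and its adaptor differed. Trem2, at chr17:48346401-48354147 on the plus strand, stood at 605, 531, 496 and 574 CPM in UPBIG replicates 1 to 4, at 615, 571, 488 and 459 in UPSMALL, and at 541, 528, 460 and 455 in DOWN. The 3 groups overlapped. Its difference between UPBIG and DOWN was 0.15 ± 0.12, with an approximate 95% interval from -0.07 to 0.38 and an adjusted p of 0.418 by edgeR, and with library totals alone it turned to -0.17. Against UPSMALL it was 0.05 ± 0.12, from -0.18 to 0.27, turning to -0.22 with library totals.

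Tyrobp, at chr7:30413760-30417585 on the plus strand, stood at 7969, 7485, 6378 and 6974 CPM in UPBIG, at 5958, 5182, 5090 and 4302 in UPSMALL, and at 4919, 4508, 4386 and 4406 in DOWN. All UPBIG libraries lay above all others, and UPSMALL overlapped with DOWN. It rose by 0.66 ± 0.12 between UPBIG and DOWN, with an adjusted p of 0.000765 by edgeR, and by 0.34 (0.0319) with library totals alone. Between UPBIG and UPSMALL it rose by 0.49 ± 0.12, adjusted p 0.0198 by edgeR. That call was lost with library totals (0.22, adjusted p 0.207) and without UPBIG replicate 1 (0.0708), UPBIG replicate 2 (0.0566) or UPSMALL replicate 3 (0.0587). Neutrophils also express Tyrobp, and the neutrophil sums were higher in UPBIG, mostly through S100a8. Of 6 tested neutrophil markers 2 rose and 1 fell between UPBIG and DOWN. The sums of monocyte and recruited macrophage markers and of dendritic cell markers were lower in UPBIG than in DOWN. The part of any of these cells in the result was not tested.

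The ratio of Tyrobp to Trem2 within a library needs no scaling. As a log2 ratio of counts it was 3.71 ± 0.089 (SD, n = 4) in UPBIG, 3.27 ± 0.087 in UPSMALL and 3.20 ± 0.082 in DOWN. All UPBIG libraries exceeded all others, from 3.60 to 3.82 against at most 3.38. The differences of 0.50 from DOWN and 0.44 from UPSMALL each had the smallest two-sided exact permutation p that 4 against 4 libraries allows, 0.0286. Neither passed, with an adjusted p of 0.0828 over the 84 ratio tests made. At that floor the adjusted p depends on how many tests reach it, not on how far apart the groups lie.

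Of 25 tested genes on a list of TREM2 and TYROBP signalling, 3 rose and 8 fell between UPBIG and DOWN, or 2 and 12 with library totals. The median change was -0.06, beside -0.03 over all genes. Over all tested genes 9.03% rose and 8.48% fell. Grb2, an SH2 adaptor, rose by 0.83 ± 0.12, Cd300ld by 0.83, and the kinase Syk by 0.41, a call lost with library totals (0.09). Among those that fell, the colony-stimulating factor receptor Csf1r stood at 122 ± 3.66 CPM (SD, n = 4) in UPBIG against 211 ± 8.63 in DOWN and changed by -0.80 ± 0.09. The linker Lat2 changed by -1.26 ± 0.18 and the lipid kinase subunit Pik3cg by -0.67. Trem1, another receptor that uses Tyrobp, changed by -1.42 ± 0.35, from 11.1 to 4.14 CPM. Between UPBIG and UPSMALL 2 rose and 3 fell, beside 3.22% and 2.49% of all genes, or 0 and 8 with library totals. Between UPSMALL and DOWN none passed by edgeR (6 at an unadjusted p under 0.05, 2 by DESeq2), beside 1.14% of all genes.

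Spp1, at chr5:104435118-104441050 on the plus strand, was the most abundant of the 8 in all but 1 of the 12 libraries when levels were divided by transcript length. It stood at 21238, 23426, 20358 and 20738 CPM in UPBIG replicates 1 to 4, at 22424, 38785, 22588 and 17588 in UPSMALL, and at 19835, 23852, 18840 and 16988 in DOWN. The groups overlapped, and UPSMALL replicate 2 lay above all other libraries. Spp1 took 1.87% ± 0.16 (SD, n = 4) of all counts in UPBIG, 2.64% ± 0.82 in UPSMALL and 2.16% ± 0.31 in DOWN. Between UPBIG and DOWN the difference was 0.11 ± 0.19, with an approximate 95% interval from -0.26 to 0.48 and an adjusted p of 0.76 by edgeR, and it turned to -0.21 with library totals. Between UPBIG and UPSMALL it was -0.24 ± 0.19 (adjusted p 0.565 by edgeR), or 0.04 without UPSMALL replicate 2. The difference between UPSMALL and DOWN was 0.35 ± 0.19, or 0.07 without that library. A predicted locus, Gm42793, overlaps Spp1 exons on the same strand and held 175.3 counts over all libraries, so a few reads may be split between them. Of 7 tested genes for SPP1 receptors 2 fell between UPBIG and DOWN, the integrin chains Itga4 (-0.59) and Itga5 (-0.81), beside 8.48% of all genes. With library totals 5 of the 7 fell, with a median change of -0.69 beside -0.36 over all genes. None of the 7 passed by edgeR between UPBIG and UPSMALL (1 at an unadjusted p under 0.05, 0 by DESeq2) or between UPSMALL and DOWN (3 and 2). Over all genes edgeR called 5.7% and 1.14% in these comparisons. With library totals 1 of the 7 fell between UPBIG and UPSMALL. Cd44 differed between UPBIG and DOWN by 0.19 (adjusted p 0.383 by edgeR).

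Cd9, at chr6:125460266-125494791 on the minus strand, stood at 5464, 4880, 5858 and 5289 CPM in UPBIG, at 4571, 4480, 4244 and 3423 in UPSMALL, and at 4141, 3351, 4092 and 3119 in DOWN. The UPBIG libraries again lay above all others. It rose by 0.55 ± 0.13 between UPBIG and DOWN (adjusted p 0.00549 by edgeR), a call that library totals ended (0.23, adjusted p 0.124). The difference from UPSMALL, 0.36 ± 0.13, did not pass (0.116 by edgeR, 0.0358 by DESeq2). The opposite-strand loci Gm26728 and Gm28809 overlap Cd9, with 186.4 and 34.0 counts in all, and only Gm26728 overlaps its exons. Without a stated strand setting reads of opposite-strand genes that share exons cannot be told apart.

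Among 14 other tetraspanins and partners 3 rose between UPBIG and DOWN, beside 9.03% of all genes. They were Tspan4 (0.75), Cd37 (0.60) and the lysosomal Cd63 (0.50), but with library totals none of the 14 rose and 3 fell. Tspan33 fell by 4.47 ± 1.24 at low counts, 4 over the UPBIG group against 129 over DOWN, where its level was 1.52 ± 1.86 CPM (SD, n = 4). None of the 14 passed by edgeR between UPBIG and UPSMALL (5 at an unadjusted p under 0.05, 2 by DESeq2) or between UPSMALL and DOWN (2 and 0). Over all genes edgeR called 5.7% and 1.14% in these comparisons.

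Lgals3, at chr14:47367751-47386160 on the plus strand, stood at 3194, 2423, 2955 and 2453 CPM in UPBIG, at 2612, 2310, 2006 and 1665 in UPSMALL, and at 2602, 2550, 2540 and 1526 in DOWN. The groups overlapped, with DOWN replicate 4 far under the other DOWN libraries. Its difference between UPBIG and DOWN was 0.26 ± 0.17, with an approximate 95% interval from -0.07 to 0.59 and an adjusted p of 0.334 by edgeR. It was 0.12 without DOWN replicate 4 and -0.05 with library totals. Between UPBIG and UPSMALL it was 0.36 ± 0.17, with an approximate 95% interval from 0.03 to 0.69 and an adjusted p of 0.267 by edgeR, so it did not pass there either. Of 8 tested galectins and their partners 3 rose and none fell between UPBIG and DOWN, where 9.03% of all genes rose. The same 3 rose between UPBIG and UPSMALL, where the share was 3.22%. They were Lgals1 (galectin-1), which went from 974 ± 41.5 CPM (SD, n = 4) in DOWN to 1526 ± 89.1 in UPBIG, a change of 0.65 ± 0.10, the galectin-3 binding protein Lgals3bp (0.84) and the lysosomal glycoprotein Lamp1 (0.59). With library totals 2 rose in the first of these comparisons and none in the second.

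Arg1 went the other way. At chr10:24915221-24927484 on the minus strand, it stood at 30.8, 45.1, 15.4 and 18.2 CPM in UPBIG replicates 1 to 4, at 121, 171, 69.5 and 222 in UPSMALL, and at 104, 118, 64.1 and 89.2 in DOWN. Every UPBIG library lay below every other, and UPSMALL overlapped with DOWN. Between UPBIG and DOWN it fell by 1.77 ± 0.43 on the log2 scale, 3.42-fold (adjusted p 0.0174 by edgeR), and between UPBIG and UPSMALL by 2.41 ± 0.44, 5.33-fold (0.00959 by edgeR). Both calls held with library totals and with any 1 library left out, where the adjusted p reached at most 0.048 and 0.0308. UPSMALL was above DOWN by 0.64 ± 0.41 (adjusted p 0.57 by edgeR). Against the midpoint of UPBIG and DOWN it was higher by 1.53 ± 0.34, which did not pass by edgeR (adjusted p 0.156, beside 0.246% of all genes called) and passed by DESeq2 (0.00672).

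Arg1 fell where the monocyte and recruited macrophage markers summed lowest. Of these 13 markers, 4 fell between UPBIG and DOWN, 3 between UPBIG and UPSMALL and 2 between UPSMALL and DOWN, and none rose. Over all genes 8.48%, 2.49% and 0.547% fell in these comparisons. With library totals 9, 6 and 2 of the 13 fell. Ccr2, the chemokine receptor of recruited monocytes, averaged 9.91 CPM in UPBIG, 64.4 in UPSMALL and 184 in DOWN, and Cx3cr1 1.19, 17.3 and 31.8. The order of these genes over the groups was that of the list, whereas Arg1 averaged highest in UPSMALL. Their part in the result was not tested. In CPM, UPSMALL replicate 4, the highest library for Arg1, was the lowest UPSMALL library for Spp1, Gpnmb, Trem2, Tyrobp, Cd9 and Lgals3. Its TMM factor, 1.17, was the largest of the 12 libraries. As a share of library counts, UPSMALL replicate 3 lay below it for Gpnmb (0.0685% against 0.0767%) and Trem2 (0.0508% against 0.0537%). Without UPSMALL replicate 4, Arg1 changed by -2.13 between UPBIG and UPSMALL. Of 12 other genes of arginine metabolism, the polyamine genes Sat1 (0.57) and Srm (0.56) rose between UPBIG and DOWN and the arginine transporter Slc7a2 fell by 0.37 ± 0.11. Over all genes 9.03% rose and 8.48% fell there. With library totals none of the 12 rose and 1 fell.

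Chil1, at chr1:134182176-134190181 on the plus strand, was close to undetected. It had 0, 20, 14 and 13 counts in UPBIG replicates 1 to 4, 0, 0, 2 and 5 in UPSMALL, and 1, 1, 22 and 0 in DOWN, where 3 counts in a library correspond to 0.11 to 0.205 CPM. The groups overlapped because UPBIG replicate 1 had none and DOWN replicate 3 had 22. Its summed counts gave a ratio of 2.57 between UPBIG and DOWN, with a 95% counting interval from 1.54 to 4.40 that does not cover the spread between libraries, and edgeR's adjusted p was 0.546. The difference from UPSMALL was 3.19 ± 1.38 on the log2 scale (adjusted p 0.218 by edgeR). On the list of chitinase-like and alternative activation genes 1 of 9 tested passed between UPBIG and DOWN, beside 17.5% of all genes. The gene that passed was the lectin Mgl2, which fell by 4.77 ± 1.03, from 6.74 ± 3.58 CPM (SD, n = 4) to 0.256 ± 0.511. With library totals 5 of the 9 fell, with a median change of -0.51 beside -0.36 over all genes. The chitinase-like Chil3, an abundant alveolar macrophage product, differed by 0.09 (adjusted p 0.805 by edgeR).

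**Figure D2:**
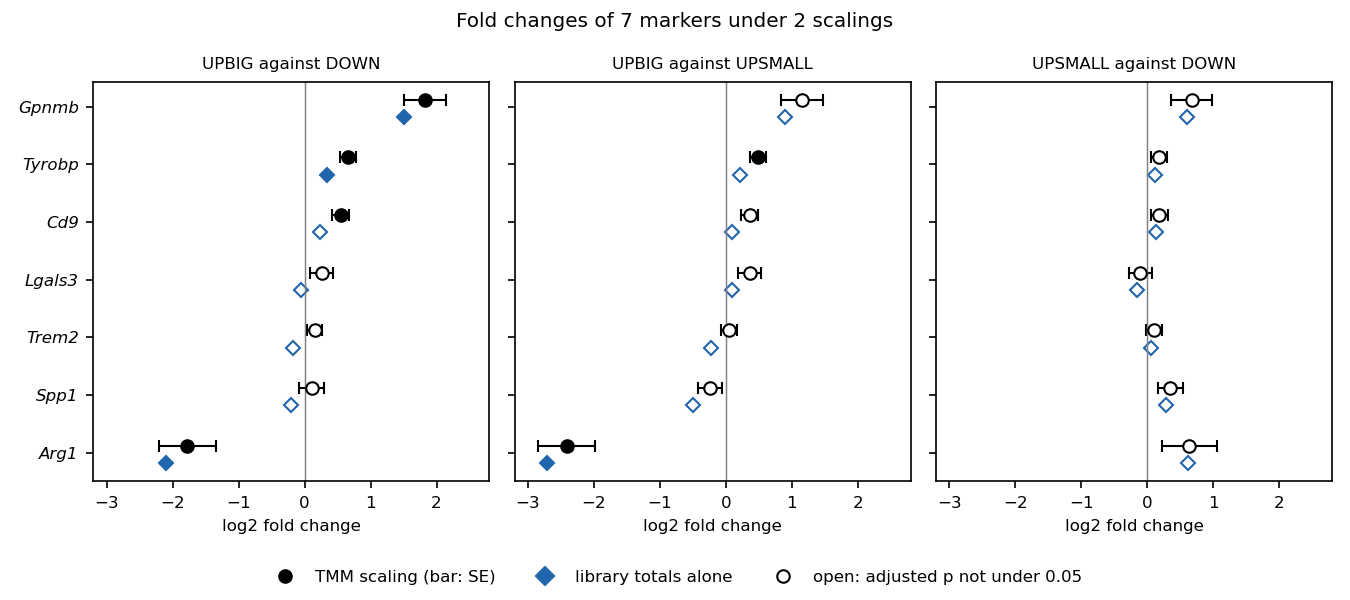
Log2 fold change of 7 of the genes in each comparison; black circles use TMM scaling with SE bars, blue diamonds library totals alone, and open symbols have an adjusted p not under 0.05. Changing the scaling moves the UPBIG comparisons to the left for every gene shown, ending the Cd9 call against DOWN and the Tyrobp call against UPSMALL, while Arg1 stays lower.

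The pairwise ratios placed the genes relative to each other without a scaling factor. Leaving Chil1 aside, 14 of 21 pairs had log2 ratios that did not overlap between UPBIG and DOWN, where 20.0% of all pairs of tested genes did not, and 14 of 21 between UPBIG and UPSMALL, where the share was 11.3%. Between UPSMALL and DOWN it was 1 of 21, beside 8.14%. Pairs share genes and are not independent. Each of these pairs had an exact permutation p of 0.0286, the smallest that these group sizes allow, and none passed after adjustment over the 84 tests. At that floor the adjusted p depends on how many tests reach it, not on how far apart the groups lie. The adjustment therefore cannot rank these pairs or show that a ratio did not differ.

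The ratio of Gpnmb to each of the other 6 was higher in every UPBIG library than in any DOWN library. The ratio of Gpnmb to Spp1 was -3.24 ± 0.29 (SD, n = 4) in UPBIG, -4.65 ± 0.55 in UPSMALL and -4.97 ± 0.27 in DOWN. That of Gpnmb to Tyrobp was -1.67 ± 0.23 in UPBIG and -2.85 ± 0.37 in DOWN, with UPSMALL at -2.40 ± 0.51 and overlapping with UPBIG. The ratio of Gpnmb to Arg1 spanned most, with 6.50 ± 0.46, 2.85 ± 0.91 and 2.79 ± 0.35 in the 3 groups, 13.1-fold between UPBIG and DOWN. Gpnmb to Lgals3 was the one pair that did not overlap between UPSMALL and DOWN either, at -1.14 ± 0.41 and -1.83 ± 0.24.

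Other ratios overlapped between the groups. Trem2 to Spp1 was -5.28 ± 0.16 in UPBIG and -5.32 ± 0.14 in DOWN, and Tyrobp to Cd9 was 0.42 ± 0.22 and 0.32 ± 0.18. Cd9 to Lgals3 was 0.97 ± 0.14 in UPBIG and 0.97 ± 0.12 in UPSMALL, against 0.70 ± 0.26 in DOWN. Overlap of the groups does not show that a ratio was the same.

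**Figure D3:**
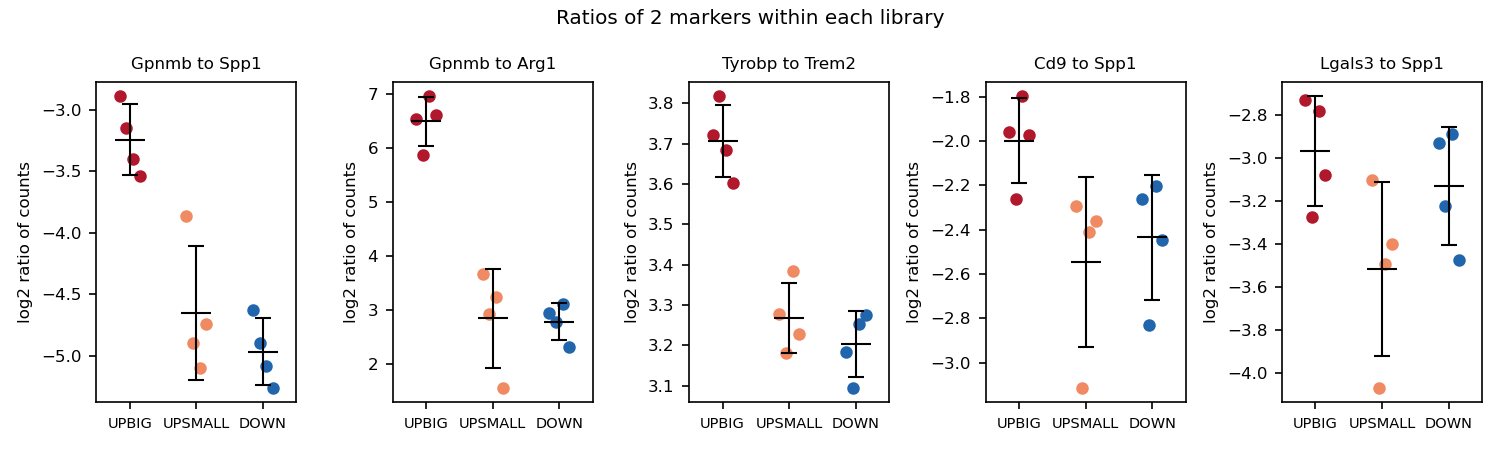
Log2 ratio of the counts of 2 genes within each library, for 5 of the pairs and each on its own axis; points are libraries and black bars the mean ± SD of 4. UPBIG stands clear of both other groups for Gpnmb to Spp1, Gpnmb to Arg1 and Tyrobp to Trem2, is clear only of UPSMALL for Cd9 to Spp1, and overlaps with both for Lgals3 to Spp1.

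Levels divided by the length of the principal transcript ordered the genes alike in the 3 groups except at 1 place. Per kilobase, Spp1 led with 14227 ± 911 CPM (SD, n = 4) in UPBIG, 16819 ± 6141 in UPSMALL and 13191 ± 1924 in DOWN. Tyrobp followed with 12768 ± 1211, 9101 ± 1201 and 8076 ± 441, and in UPBIG the ranges of these neighbours overlapped, Spp1 being higher in 3 of 4 libraries. Cd9 came next with 4375 ± 330, 3404 ± 426 and 2993 ± 422, then Lgals3 with 1942 ± 268, 1514 ± 286 and 1624 ± 366, with no overlap between neighbours. Trem2 held 507 ± 43.7, 490 ± 66.3 and 456 ± 41.3 per kilobase. Gpnmb was above it in UPBIG at 624 ± 144, though in only 3 of 4 libraries, and below it in all 4 libraries of UPSMALL (280 ± 122) and of DOWN (176 ± 48.8). Arg1 held 18.5 ± 9.20, 98.9 ± 44.4 and 63.5 ± 15.5 per kilobase, and Chil1 under 1 in every library. The deposited counts carry no correction for uneven coverage along transcripts.

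The genes whose log2 CPM ran most like each member over the 12 libraries were taken from 6778 well-expressed genes. Gpnmb was most like the lysosomal genes Pld3 (Pearson r = 0.99) and Lipa (0.98), the latter the acid lipase that splits cholesteryl esters. Tyrobp was most like Hpcal1 (0.98) and Iqsec1 (0.97), and Cd9 like Hist1h2bc (0.97) and Dad1 (0.95). Lgals3 came closest to Bst1 and Cd93 (both 0.93), Arg1 to Mef2a and Trmt1 (both 0.90), Trem2 to Panx1 (0.88) and Psmd13 (0.87), and Spp1 to Pdia4 (0.83) and Creb3 (0.82). These r values describe 12 points that share groups and scaling, and they were the highest of many. For Chil1, with its few counts, no like gene is named.

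Other genes known from lipid-laden and scar-associated macrophages also split. Of 36 tested, 20 rose and 3 fell between UPBIG and DOWN, with a median change of 0.50 beside -0.03 over all genes, or 17 and 7 with library totals (median 0.18). Those that rose include the apolipoprotein Apoc1, which went from 12.2 ± 2.64 CPM (SD, n = 4) in DOWN to 306 ± 78.9 in UPBIG, a change of 4.65 ± 0.21, and the cholesterol exporters Abca1 (2.59) and Abcg1 (1.89). Those that fell were fibronectin, Fn1, from 1813 ± 69.2 to 282 ± 39.7 CPM, a change of -2.68 ± 0.15, the matrix protease Mmp14 (-0.86) and the growth factor Pdgfb (-1.74). Between UPBIG and UPSMALL 13 rose and 3 fell. Over all genes 9.03% rose and 8.48% fell in the comparison with DOWN, and 3.22% and 2.49% in that with UPSMALL. Fabp4 and Itgax, which are both on this list and rose, also stand on the alveolar macrophage list.

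Genes reported to regulate or accompany Gpnmb moved in both directions. Of 10 tested, the cathepsin Ctsk and the proton pump subunit Atp6v0d2 rose between UPBIG and DOWN, by 1.30 ± 0.11 and 1.06 ± 0.14. Over all genes 9.03% rose and 8.48% fell in that comparison. Ctsk was also the one of the 10 to rise between UPSMALL and DOWN, by 0.54 (adjusted p 0.0224 by edgeR), beside 0.594% of all genes. The transcription factor Mitf fell between UPBIG and DOWN by 0.68 ± 0.17, from 29.2 ± 5.01 to 18.2 ± 3.33 CPM (SD, n = 4). Its relatives Tfeb (0.05), Tfe3 (-0.01) and Tfec (-0.15) did not pass there. With library totals 2 of the 10 rose and 2 fell in that comparison. Between UPBIG and UPSMALL 2 of the 10 rose and 1 fell, beside 3.22% and 2.49% of all genes.

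**Figure D4:**
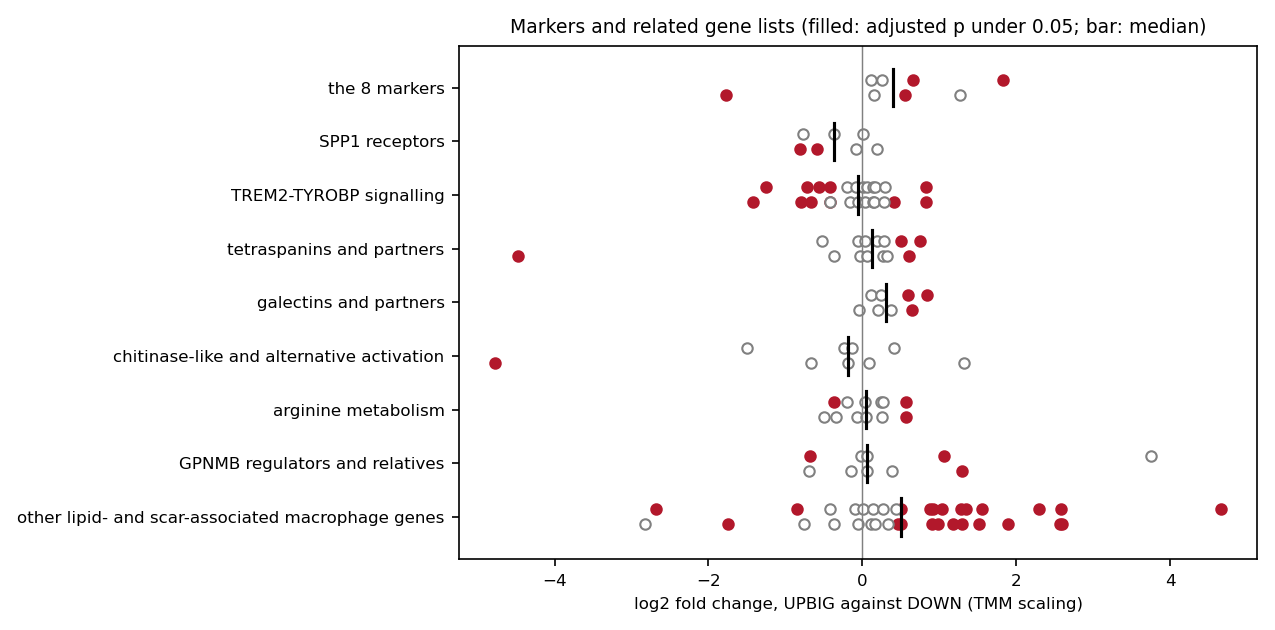
Log2 fold change between UPBIG and DOWN, with TMM scaling, of the 8 genes and of the tested genes of each related list; each circle is a gene, filled where the adjusted p is under 0.05, and the black bar is the list's median. Called genes lie on both sides of 0 in most lists, and the list of other lipid- and scar-associated genes has 20 called above 0 and 3 below.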

How the data were processed

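The deposited values are expected counts per gene and library. Per the submitters' processing notes the authors used STAR, RSEM and mm10, with versions and strand setting not given in the sources used here. SMART-Seq chemistry gave full-length cDNA of polyadenylated RNA, per the labels' protocols, so uneven amplification is part of each value. Of the values 13.8% were not whole, and all were rounded. Positions come from a GRCm38 gene annotation, in which 26775 identifiers had a symbol.

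Genes were filtered with filterByExpr and all libraries fitted together in edgeR 4.0.16 (R 4.3.3; TMM, robust quasi-likelihood). Log2 ratios of 2 genes used a pseudocount of 0.5 and two-sided exact permutation tests. Alternatives were other scalings, DESeq2 1.42.0, limma-voom (limma 3.58.1), other filters, fewer libraries, a pseudocount of 5 and the replicate number as a block. The fits were also tested on simulated data. The labels give the groups only a shared replicate number. Deviations of all 4 same-numbered pairs of UPBIG and DOWN libraries correlated above 0.1 (0.127 to 0.28), which makes their pairing a reading of the data, not of the labels.

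The members and lists were chosen with earlier results of these data known. The rule named the members, up to 3 called genes per list and direction by p between UPBIG and DOWN, and the 2 genes most correlated with each member among genes averaging at least 3 on the log2 CPM scale. Trem1, Cd44, Chil3, Ccr2, Cx3cr1, S100a8, Camp, Fabp4, Itgax and the Mitf relatives were named after their values were seen. Intervals on counts cover counting error only, since the reads carry no molecular identifiers here.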

Additional observations from a re-analysis of the deposited data

Results flagged for a closer look

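In 24 checks of a gene's spread within a group, a library stood apart from the other 3 in 2 of them, and chance alone flags about 1 in 20 groups. Lgals3 was at 1526 CPM in DOWN replicate 4, against 2540 to 2602 in the other DOWN libraries. Chil1 was at 1.12 CPM in DOWN replicate 3, from 22 counts, against 0 to 0.0481 CPM in the others.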

How the results depend on the processing

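Of 626 alternative values of single members, in the comparisons of 2 groups and against the midpoint, 598 kept direction and side of the threshold. Library totals alone moved the counts of called genes from 2210 to 3755 (UPBIG against DOWN; 518 higher and 3237 lower, from 1140 and 1070), from 720 to 1622 (UPBIG against UPSMALL; 189 higher and 1433 lower, from 406 and 314), from 31 to 66 (UPSMALL against the midpoint) and from 1736 to 3021 (any difference). It turned Spp1 (-0.21), Trem2 (-0.17) and Lgals3 (-0.055) between UPBIG and DOWN, Trem2 (-0.22) between UPBIG and UPSMALL and Cd9 (0.023) against the midpoint. In the test of any difference, Tyrobp (adjusted p 0.0815) and Cd9 (0.269) were lost with library totals by edgeR, and Cd9 without UPBIG replicate 3 (0.0569). The 144 calls between UPSMALL and DOWN became 393 with DESeq2, 226 with limma-voom and 460 without a filter, and the 31 against the midpoint became 129, 50 and 241, or 47 with the stricter filter; the cause was not tested.

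With each library left out, UPSMALL against DOWN gave 58 (without UPSMALL replicate 1) to 179 calls, with 65 to 85 without UPSMALL replicate 3 or DOWN replicates 1, 2 or 3. The midpoint gave 24 to 60 calls, the latter without DOWN replicate 4. Pairs of members not overlapping between UPSMALL and DOWN were 1 to 4, the latter without DOWN replicate 4. Ranges that crossed 0 were Spp1 (-0.375 to 0.040) and Trem2 (-0.011 to 0.123) between UPBIG and UPSMALL, Lgals3 (-0.244 to 0.011) and Chil1 (-2.98 to 1.12) between UPSMALL and DOWN, and Trem2 against the midpoint (-0.044 to 0.094). Gpnmb between UPBIG and UPSMALL passed without UPSMALL replicate 1 (1.41, adjusted p 0.0205 by edgeR) and with the stricter filter (0.0497).

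Deviations of same-numbered libraries correlated above 0.1 in 9 of 12 pairs (-0.098 to 0.361), all 4 between UPBIG and DOWN among them but not all in the other comparisons, against a median of -0.064 for other numbers; 8 of 12 libraries correlated best with their own number, a hint from the data, not the design. With the number as a replicate block, calls were 2607, 1025 and 275 in the comparisons of 2 groups, 103 against the midpoint and 2220 for any difference. The block changed no member's call between UPBIG and DOWN. With it edgeR also passed Gpnmb (adjusted p 2.35e-06), Cd9 (0.0228) and Lgals3 (0.0422) between UPBIG and UPSMALL, Gpnmb between UPSMALL and DOWN (0.00639), Arg1 against the midpoint (0.0229) and Lgals3 for any difference (0.0462). The block was not the only setting to do so between UPBIG and UPSMALL, where Cd9 passed in 3 of 20 alternatives and Lgals3 in 2 of 20.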
